A study of Homo sapiens with 6 samples.

Results

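The genes described here carry the symbols of mitochondrial ribosomal proteins, MRPL (large subunit) and MRPS (small subunit). They were chosen by symbol alone, MRPL or MRPS followed by digits and at most 1 letter, with antisense and pseudogene symbols left out. Of 24462 symbols in the deposited counts, 77 met this rule, 48 of them MRPL and 29 MRPS, and 4 symbols (MRPL23-AS1, MRPL42P5, MRPL45P2 and MRPS31P5) were dropped. RNA was sequenced in 6 libraries, 2 in each of 3 groups, from cells labelled as MDA-MB231, a line from a triple-negative breast cancer. In the first group, labelled ELK3KD-231 +ELK3, cells with a stable retroviral shRNA against ELK3, an ETS-family transcription factor, were collected 48 hours after transfection with 1 µg of pLenti-cMyc-DDK-ELK3. The second group, labelled ELK3KD-231 +CV, consists of the same knockdown cells 48 hours after 1 µg of pLenti-cMyc-DDK. The third, labelled 231-C, consists of cells infected with a retrovirus made from a control plasmid, and no transfection is given for it. The labels do not say whether the 2 libraries of a group come from separate cultures, so the p-values measure only the spread between these libraries, which may be technical.

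As background, the mitochondrial ribosome is built from proteins that are all encoded in the nucleus, made in the cytosol and imported, and from ribosomal RNA encoded in the mitochondrial genome. It translates the mitochondrial mRNAs, which encode core subunits of the respiratory chain and of ATP synthase. The large subunit holds the peptidyl transferase centre, the tunnel through which the new chain leaves and the stalk that recruits translation factors, and the small subunit holds the decoding centre, where the codon of the mRNA is read. Many of its proteins descend from bacterial ribosomal proteins, and others are found in mitochondria only.

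The level of ELK3 went against the labels. ELK3 stood at 20.4 and 22.6 CPM in the ELK3-labelled libraries, 759 and 697 CPM in the vector-labelled libraries and 129 and 124 CPM in the control libraries. The libraries labelled as having received ELK3 thus had the lowest counted level of ELK3. Those labelled as having received the control vector had the highest. The reads come from transcript ends, and whether RNA made from the plasmid would be counted under ELK3 is not known. The groups are therefore called by their labels throughout, and each direction given below is a direction between labelled libraries. The 10 genes typical of MDA-MB-231 summed to 841 and 799 CPM, scaled counts relative to the library total, in the ELK3-labelled libraries, 898 and 867 CPM in the vector-labelled libraries and 5643 and 5456 CPM in the controls, and 10 of 10 were lower in each labelled knockdown group than in the controls. Of 10 genes typical of HEK293, a human embryonic kidney line, 8 could be tested and 8 were higher in each labelled knockdown group than in the controls, with sums of 1082 and 1106 CPM in the ELK3-labelled libraries, 794 and 833 CPM in the vector-labelled libraries and 169 and 181 CPM in the controls. The 10 liver genes, among them the albumin gene ALB, summed to 8423 to 11146 CPM over all 6 libraries, and 10 of 10 were lower in the ELK3-labelled libraries than in either other group, with median log2 differences of -0.33 against the vector-labelled libraries and -0.28 against the controls. The 7 luminal genes summed to 539 to 580 CPM in the ELK3-labelled, 272 to 278 CPM in the vector-labelled and 303 to 309 CPM in the control libraries, and 3 rose and 3 fell in the ELK3-labelled against the vector-labelled libraries. In that comparison 0 of 5 fibroblast and 0 of 7 tested lymphocyte genes rose, and 1 and 3 fell, from sums of 47.9 to 80.2 CPM and 93.5 to 136 CPM over the libraries. The part of these differences in the results below was not tested. In bulk RNA, fewer cells of a type and less of an RNA per cell cannot be told apart.

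All 77 genes had counts in every library, from 37 counts for MRPL39 in vector-labelled replicate 2 to 4002 counts for MRPL18 in vector-labelled replicate 1, and all 77 passed the filter on low counts. Library totals ran from 4884483 to 9131214 counts. The 77 genes together took 0.755% and 0.745% of all counts in the ELK3-labelled libraries, against 0.701% and 0.682% in the vector-labelled ones and 0.725% and 0.741% in the controls. After scaling by TMM, which sets the bulk of genes level between libraries, their summed level was 7153 and 7234 CPM in the ELK3-labelled libraries, 6868 and 6664 CPM in the vector-labelled libraries and 7719 and 8016 CPM in the control libraries. The scaled sums were lowest in the vector-labelled libraries and highest in the controls, and no 2 groups overlapped. Against unscaled totals, the ELK3-labelled shares instead lay above those of the controls. Replicates lay close together, with a median difference between the 2 libraries of a group of 0.07 (ELK3-labelled), 0.10 (vector-labelled) and 0.11 (control) on the log2(CPM + 0.5) scale. The widest gaps were 0.46 for MRPS28 in the ELK3-labelled libraries, and 0.75 in the vector-labelled and 0.57 in the control libraries, both for MRPL44.

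The large subunit summed to 4224 and 4256 CPM in the ELK3-labelled libraries, 4046 and 3942 CPM in the vector-labelled libraries and 4459 and 4748 CPM in the control libraries. For the small subunit the sums were 2929 and 2978 CPM, 2822 and 2721 CPM, and 3260 and 3268 CPM in the same order of groups. Both subunits were thus lowest in the vector-labelled libraries. MRPL18 had the highest level of the 77 in both vector-labelled libraries, and without it the large subunit summed to 4101 and 4143 CPM in the ELK3-labelled libraries, 3458 and 3412 CPM in the vector-labelled libraries and 4375 and 4642 CPM in the control libraries.

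**Figure D1:**
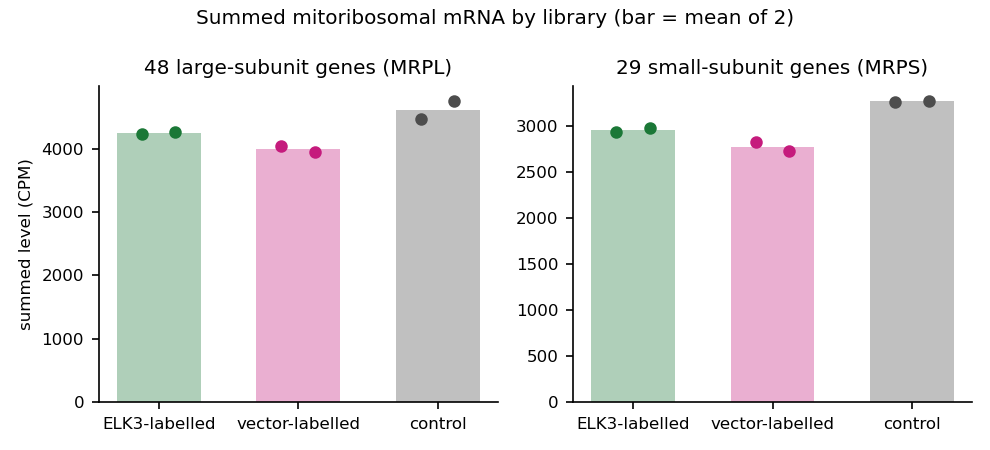
Summed level in CPM, TMM-scaled, of the 48 large-subunit genes (left) and the 29 small-subunit genes (right). Points are the 2 libraries of a group and bars their mean. Both sums are lowest in the vector-labelled libraries, at 3942 and 4046 CPM for the large subunit and 2721 and 2822 CPM for the small.

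The 77 genes did not move as a block: each comparison had genes that rose and genes that fell past an adjusted p of 0.05 in edgeR's quasi-likelihood test with Benjamini-Hochberg adjustment over the 15386 genes tested, the test behind every adjusted p here. In the ELK3-labelled libraries against the vector-labelled libraries, 40 of 77 rose and 23 fell, with a median log2 fold change of 0.29. Over all genes tested in that comparison, 30.0% rose and 29.6% fell, with a median of -0.02. In the ELK3-labelled libraries against the controls, 17 rose and 33 fell, with a median of -0.09, where 31.8% of all genes rose and 30.8% fell, with a median of 0.02. The counts in that comparison, and the sign of the median, depend on the scaling. With library totals in place of TMM, 30 rose and 26 fell, with a median of 0.07. Over all genes 38.4% then rose and 24.5% fell, and their median became 0.18. The median of the 77 lay below that of all genes under both scalings. In the vector-labelled libraries against the controls, 17 rose and 42 fell, with a median of -0.31, where 37.0% of all genes rose and 35.3% fell, with a median of 0.05. Library totals gave 22 higher and 36 lower there and a median of -0.18, beside 41.3% higher, 31.4% lower and a median of 0.18 for all genes. The share that rose against the vector-labelled libraries and the share that fell in the vector-labelled libraries against the controls were both above the background, and these 2 comparisons share the vector-labelled libraries. The share that fell in the ELK3-labelled libraries against the controls, 42.9%, was above its background of 30.8% as well.

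By subunit, 27 large-subunit (56.25%) and 13 small-subunit genes (44.8%) rose in the ELK3-labelled libraries against the vector-labelled libraries. In the same order 14 (29.2%) and 9 (31.0%) fell, with medians of 0.31 for the large and 0.03 for the small subunit. Of all genes tested 30.0% rose and 29.6% fell there. Against the controls, 12 (25%) and 5 (17.2%) rose and 20 (41.7%) and 13 (44.8%) fell in the ELK3-labelled libraries, with medians of -0.05 and -0.13. The shares of all genes were 31.8% and 30.8%. In the vector-labelled libraries against the controls, 8 (16.7%) and 9 (31.0%) rose and 27 (56.25%) and 15 (51.7%) fell, with medians of -0.36 and -0.26. The shares of all genes were 37.0% and 35.3%. Whether the subunits differ was not tested. The group with the lowest mean level was the ELK3-labelled one for 19 genes, the vector-labelled one for 42 and the control for 16. The lowest group was not counted over all genes tested, so these counts have no background beside them. The 3 genes MRPL44, MRPL49 and MRPS28 passed the threshold in no comparison.

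**Figure D2:**
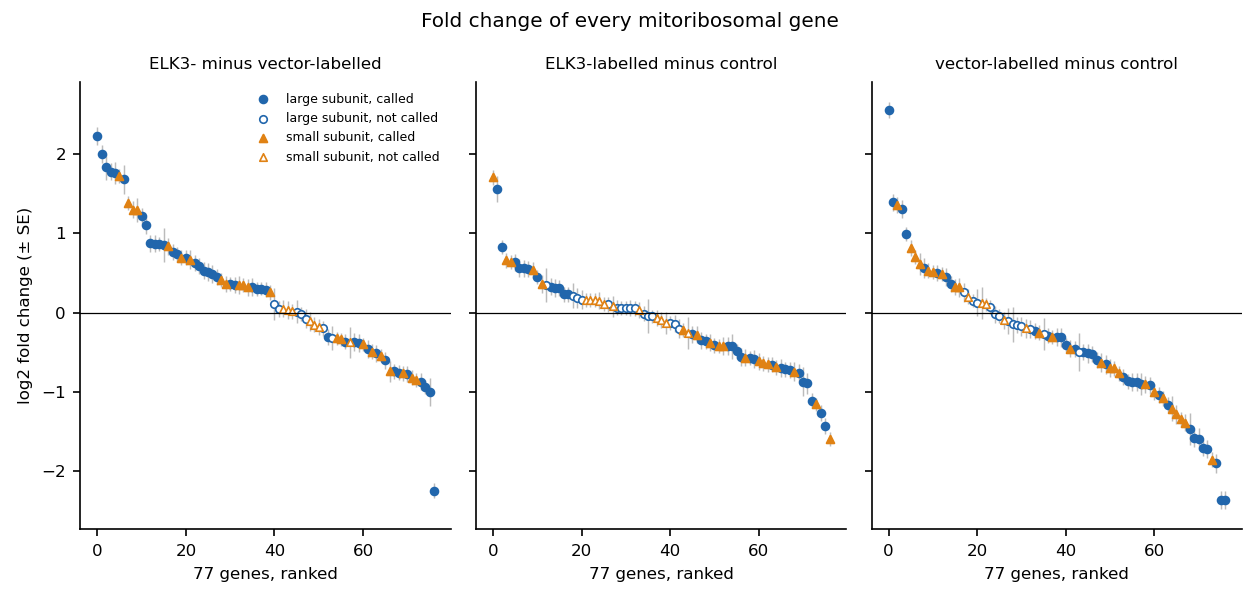
Log2 fold change with its SE of each of the 77 genes, ranked within each comparison, with large-subunit genes as circles and small-subunit genes as triangles. Filled symbols passed an adjusted p of 0.05. In the left panel (ELK3-labelled minus vector-labelled) 40 genes lie above 0 with a call and MRPL18 stands alone at the low end with -2.25. In the right panel (vector-labelled minus control) it stands alone at the high end with 2.56.

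**Figure D3:**
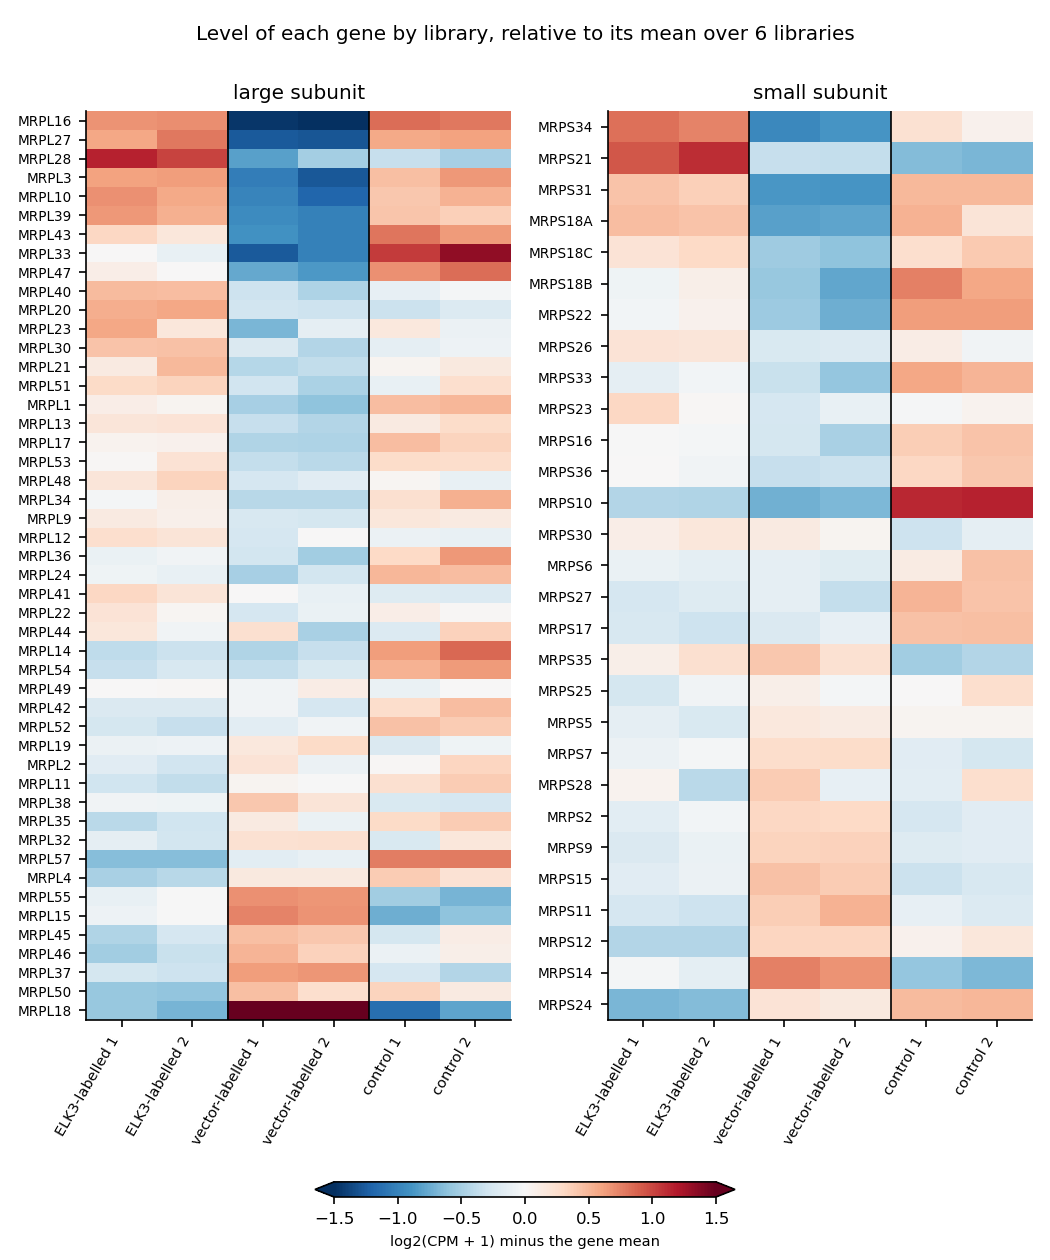
Level of every gene in every library as log2(CPM + 1) minus the mean of the gene over the 6 libraries, large subunit left and small subunit right, ordered from the highest to the lowest log2 fold change of ELK3-labelled against vector-labelled libraries. Replicates of a group look alike, the vector-labelled columns are blue for the upper genes of both panels, and MRPL18, MRPL37, MRPL15, MRPL55 and MRPS14 are red there. The colour scale ends at 1.5 in either direction.

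The promoters of these genes were read for letters that ETS factors, the family of ELK3, are known to bind. RefSeq promoter windows of 300 bases (250 before the start of transcription and 50 after it, GRCh38.p14) were matched for 69 of the 77 genes. The motifs were chosen with the fold changes known. The ETS core CCGGAAG, or CTTCCGG on the other strand, stood in 28 of the 69 windows (40.6%), in 17.7% of the 11816 windows of genes tested and in 10.7% of all 27305 windows. Shown here are the 250 bases before the start for 4 genes with the core and large differences (MRPL27, MRPL3, MRPS34, MRPL43) and for 2 genes without it that moved the other way (MRPL18, MRPL37), each 5′ to 3′ along the gene, with the core in capitals. They lie at chr17:50373185-50373434 on the minus strand (MRPL27), chr3:131502972-131503221 on the minus strand (MRPL3), chr16:1773135-1773384 on the minus strand (MRPS34), chr10:100987498-100987747 on the minus strand (MRPL43), chr6:159789562-159789811 on the plus strand (MRPL18) and chr1:54199917-54200166 on the plus strand (MRPL37).
MRPL27: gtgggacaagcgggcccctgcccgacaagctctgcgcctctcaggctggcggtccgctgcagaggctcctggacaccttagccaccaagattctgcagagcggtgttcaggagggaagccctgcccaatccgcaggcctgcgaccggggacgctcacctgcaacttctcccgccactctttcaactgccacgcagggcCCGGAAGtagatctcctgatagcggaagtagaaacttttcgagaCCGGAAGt
MRPL3: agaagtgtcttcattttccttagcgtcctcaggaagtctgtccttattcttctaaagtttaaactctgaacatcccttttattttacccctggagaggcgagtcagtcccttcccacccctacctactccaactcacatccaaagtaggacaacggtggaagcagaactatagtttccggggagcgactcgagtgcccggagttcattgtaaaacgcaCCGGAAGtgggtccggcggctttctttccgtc
MRPS34: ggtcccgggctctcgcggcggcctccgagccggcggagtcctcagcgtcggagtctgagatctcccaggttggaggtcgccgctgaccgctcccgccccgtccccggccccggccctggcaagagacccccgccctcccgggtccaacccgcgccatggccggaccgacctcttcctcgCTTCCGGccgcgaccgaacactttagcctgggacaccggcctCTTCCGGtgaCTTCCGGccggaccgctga
MRPL43: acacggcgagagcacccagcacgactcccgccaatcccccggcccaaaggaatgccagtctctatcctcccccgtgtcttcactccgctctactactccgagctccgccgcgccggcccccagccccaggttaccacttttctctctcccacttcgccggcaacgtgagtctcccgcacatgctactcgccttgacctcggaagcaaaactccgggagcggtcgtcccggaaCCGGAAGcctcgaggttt
MRPL18: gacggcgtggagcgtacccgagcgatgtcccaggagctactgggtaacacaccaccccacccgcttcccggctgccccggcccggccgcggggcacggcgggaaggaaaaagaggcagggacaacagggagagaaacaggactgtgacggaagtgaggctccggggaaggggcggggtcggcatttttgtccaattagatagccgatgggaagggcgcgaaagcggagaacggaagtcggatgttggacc
MRPL37: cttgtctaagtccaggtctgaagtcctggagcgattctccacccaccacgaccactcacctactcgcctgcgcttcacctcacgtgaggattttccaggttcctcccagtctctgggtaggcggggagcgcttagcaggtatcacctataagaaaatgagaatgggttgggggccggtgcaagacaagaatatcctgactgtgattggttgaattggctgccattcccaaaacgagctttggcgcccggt

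MRPL27 had 2 cores, which began 52 and 8 bases before the start, and MRPS34 had 3, which began 71, 29 and 19 bases before it. MRPL3 and MRPL43 had 1 each, 32 and 18 bases before the start. The genes shown all follow the split given next, and some other genes do not. In the ELK3-labelled against the vector-labelled libraries, MRPL39 rose by 1.68 without the core, and MRPL54 had it and did not pass (0.01). MRPL16 and MRPL28 rose by 2.23 and 1.83 there and do follow the split, since both have the core in the full window. Neither has a whole core in the 250 bases before the start. The genes split by this core moved apart. In the ELK3-labelled libraries against the vector-labelled libraries, 24 of the 28 genes with the core rose and 2 fell, with a median log2 fold change of 0.80. Of the 41 without it, 12 rose and 19 fell, with a median of -0.15. All genes tested leaned the same way by less: of 2089 with the core, 53.2% rose and 16.2% fell (median 0.44), and of 9727 without it, 26.4% rose and 32.5% fell (median -0.08). In the vector-labelled libraries against the controls, 2 of the 28 rose and 20 fell (median -0.83), and 14 of the 41 rose and 18 fell (median -0.10), where all genes tested gave medians of -0.51 with the core and 0.11 without. In the ELK3-labelled libraries against the controls, 8 of the 28 rose and 10 fell (median -0.004), and 7 of the 41 rose and 21 fell (median -0.22), where all genes tested gave medians of -0.014 with the core and -0.002 without.

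The split held within each subunit as counts: of 16 large-subunit genes with the core, 13 rose and 1 fell in the ELK3-labelled libraries against the vector-labelled libraries, and of 12 small-subunit genes, 11 rose and 1 fell. Without the core, 10 of 25 large-subunit genes rose and 11 fell, and 2 of 16 small-subunit genes rose and 8 fell. The genes with the core that fell were MRPS12 (-0.77) and MRPL38 (-0.38), and MRPL52 and MRPL54 did not pass. A shorter core, CGGAAG on either strand, which lies inside the longer one, stood in 36 windows (52.2%, beside 30.9% of the windows of genes tested). Of these genes 29 rose and 5 fell in that comparison, and of the 33 without it 7 rose and 16 fell. Among all genes tested, 46.9% with the shorter core rose and 19.0% fell, and 24.1% without it rose and 34.4% fell. MRPL18 has this shorter core and not the longer one. The longer CCGGAAGT (ACTTCCGG on the other strand) stood in 11 windows (15.9%, beside 8.09%), and 9 of these genes rose and 1 fell. Of the 58 without it, 27 rose and 20 fell. Among all genes tested with CCGGAAGT, 61.3% rose and 14.3% fell, and 28.5% without it rose and 31.0% fell. In the 250 bases before the start alone, CCGGAAG stood in 22 windows (31.9%, beside 14.7%), and 20 of these genes rose and 1 fell. Of the 47 without it there, 16 rose and 20 fell. Among all genes tested with CCGGAAG there, 52.9% rose and 16.6% fell, and 27.4% without it rose and 31.9% fell. These matches are letters in a window and do not show that a factor binds there.

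Other motifs gave other shares. The YY1 motif AAGATGGCG, or CGCCATCTT on the other strand, stood in 13 of the 69 windows (18.8%), in 3.63% of the windows of genes tested and in 1.85% of all windows. The NRF1 core GCGCATGC (GCATGCGC on the other strand) stood in 6 (8.70%), beside 5.25% and 3.27%. The E-box CACGTG, which reads the same on both strands, stood in 7 (10.1%), beside 9.97% and 7.43%. The CCAAT box, read as CCAAT on either strand, stood in 20 (28.99%), beside 36.9% and 35.7%. In the ELK3-labelled against the vector-labelled libraries, 5 of the 13 genes with the YY1 motif rose and 5 fell (median -0.08), and 31 of the 56 without it rose and 16 fell (median 0.33). Of the 20 with the CCAAT box 8 rose and 8 fell (median 0.03), and of the 49 without it 28 rose and 13 fell (median 0.32). For the NRF1 core the counts were 4 and 1 of 6 with it (median 0.41) and 32 and 20 of 63 without it (median 0.26), and for the E-box 4 and 2 of 7 with it (median 0.29) and 32 and 19 of 62 without it (median 0.28). Of all genes tested, 30.0% rose and 29.6% fell in that comparison. Unlike the split by the ETS core, the splits by these other motifs were not counted over all genes tested. The last 3 letters of the ETS core can be the first 3 of the YY1 motif. Of the 13 genes with the YY1 motif, 4 also had the ETS core, and in 0 of the 69 windows did the motifs share those letters.

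**Figure D4:**
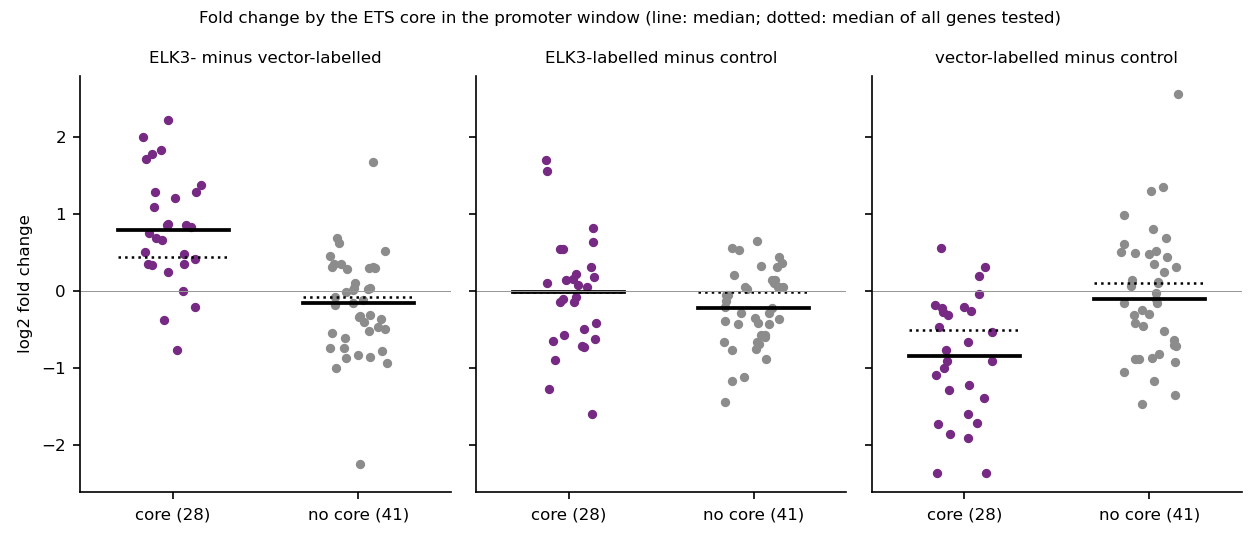
Log2 fold change of the 69 genes with a matched promoter window, split into 28 with the ETS core and 41 without it, in the 3 comparisons. Points are genes, solid lines their medians and dotted lines the medians of all genes tested with the same split. In the left panel (ELK3-labelled minus vector-labelled) the medians are 0.80 and -0.15, and in the right panel (vector-labelled minus control) they are -0.83 and -0.10.

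MRPL16, MRPL27 and MRPL3 were among the 6 highest log2 fold changes of ELK3-labelled against vector-labelled libraries. MRPL16, which in bacteria helps to place the incoming tRNA, was 105 and 107 CPM in the ELK3-labelled libraries, 23.2 and 21.8 CPM in the vector-labelled libraries and 118 and 114 CPM in the control libraries. The ELK3-labelled libraries lay just below the controls and the vector-labelled ones far below both. The log2 fold change was 2.23 ± 0.11 (SE, adjusted p = 1.28e-17) in the ELK3-labelled against the vector-labelled libraries, -0.13 ± 0.09 (SE, adjusted p = 0.211) in the ELK3-labelled libraries against the controls and -2.36 ± 0.11 (SE, adjusted p = 5.96e-19) in the vector-labelled libraries against the controls. MRPL27, whose bacterial counterpart reaches the peptidyl transferase centre with its tail, was 90.3 and 105 CPM in the ELK3-labelled libraries, 24.5 and 24.2 CPM in the vector-labelled libraries and 90.1 and 92.2 CPM in the control libraries. It too was lowest in the vector-labelled libraries, and the other groups overlapped, with 2.01 ± 0.11 (SE, adjusted p = 4.17e-16) for ELK3-labelled against vector-labelled, 0.10 (adjusted p = 0.372) for ELK3-labelled against control and -1.90 ± 0.12 (SE, adjusted p = 7.98e-16) for vector-labelled against control. MRPL3, an early-assembling protein of bacterial descent, was 126 and 128 CPM in the ELK3-labelled libraries, 39.7 and 33.6 CPM in the vector-labelled libraries and 113 and 130.3 CPM in the control libraries. Its log2 fold changes were 1.78 ± 0.11 (SE, adjusted p = 1.35e-15), 0.06 (adjusted p = 0.605) and -1.72 ± 0.11 (SE, adjusted p = 1.48e-15) in the same order of comparisons. In all 3 genes the vector-labelled libraries did not overlap either other group, while the ELK3-labelled libraries did not pass against the controls.

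MRPL33, a small protein near the exit site of tRNA, was 101 and 93.1 CPM in the ELK3-labelled libraries, 41.6 and 49.6 CPM in the vector-labelled libraries and 211 and 256 CPM in the control libraries. All 3 groups stood apart. The fall was largest in the vector-labelled libraries, -2.37 ± 0.11 (SE, adjusted p = 1.96e-19) against the controls, and was -1.27 ± 0.10 (SE, adjusted p = 3.21e-13) in the ELK3-labelled libraries, which rose by 1.10 against the vector-labelled ones (adjusted p = 2.92e-10). MRPL14, which lies on the face toward the small subunit, was 78.4 and 81.3 CPM in the ELK3-labelled libraries, 74.6 and 80.2 CPM in the vector-labelled libraries and 159 and 187 CPM in the control libraries. It fell to a like level in both labelled knockdown groups, -1.11 ± 0.10 (SE, adjusted p = 4.27e-12) in the ELK3-labelled and -1.16 ± 0.10 (SE, adjusted p = 1.63e-12) in the vector-labelled libraries against the controls, and the ELK3-labelled and vector-labelled libraries overlapped. MRPL28, a protein of bacterial descent, was 42.6 and 38.5 CPM in the ELK3-labelled libraries, 10.1 and 12.8 CPM in the vector-labelled libraries and 14.4 and 12.9 CPM in the control libraries. The ELK3-labelled libraries stood far above both other groups, with 1.83 ± 0.16 (SE, adjusted p = 1.4e-11) against the vector-labelled libraries and 1.56 ± 0.16 (SE, adjusted p = 4.48e-10) against the controls, and the vector-labelled libraries did not pass against the controls (-0.27, adjusted p = 0.228). MRPL20, which binds the ribosomal RNA early in assembly in bacteria, followed it with 225 and 230.4 CPM in the ELK3-labelled libraries, 126 and 124 CPM in the vector-labelled libraries and 123 and 134 CPM in the control libraries. Its log2 fold changes were 0.87 ± 0.09 (SE, adjusted p = 1.77e-10) and 0.83 ± 0.09 (SE, adjusted p = 4.75e-10) for the ELK3-labelled libraries against the vector-labelled libraries and the controls.

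MRPL18 gave the opposite picture. It belongs to the central protuberance of the large subunit, and a form made under heat shock is known to work on cytosolic ribosomes. Its level was 123 and 113 CPM in the ELK3-labelled libraries, 588 and 530.3 CPM in the vector-labelled libraries and 83.9 and 106 CPM in the control libraries. The vector-labelled libraries stood far above both other groups, and the ELK3-labelled libraries lay slightly above the controls. Log2 fold changes were -2.25 ± 0.10 (SE, adjusted p = 1.89e-19) for ELK3-labelled against vector-labelled, 0.31 ± 0.10 (SE, adjusted p = 0.00925) for ELK3-labelled against control and 2.56 ± 0.10 (SE, adjusted p = 2.51e-21) for vector-labelled against control. MRPL15, another protein of bacterial descent, was 73.9 and 77.8 CPM in the ELK3-labelled libraries, 132 and 125 CPM in the vector-labelled libraries and 46.8 and 51.2 CPM in the control libraries, a rise in both labelled knockdown groups against the controls, of 0.63 ± 0.11 (SE, adjusted p = 3.71e-06) in the ELK3-labelled and 1.39 ± 0.10 (SE, adjusted p = 6.69e-14) in the vector-labelled libraries. MRPL55, found in mitochondria only, moved likewise with 57.6 and 62.2 CPM in the ELK3-labelled libraries, 101 and 99.9 CPM in the vector-labelled libraries and 43.1 and 38.1 CPM in the control libraries. It rose by 0.56 in the ELK3-labelled and 1.31 in the vector-labelled libraries against the controls (adjusted p = 5.44e-05 and 1.47e-12). MRPL37, a mitochondria-specific protein, was 159 and 154 CPM in the ELK3-labelled libraries, 295 and 302 CPM in the vector-labelled libraries and 159.98 and 140.4 CPM in the control libraries. Only the vector-labelled libraries stood apart there, with -0.94 ± 0.09 (SE, adjusted p = 2.81e-11) for ELK3-labelled against vector-labelled, 0.06 (adjusted p = 0.605) for ELK3-labelled against control and 0.99 ± 0.09 (SE, adjusted p = 5.34e-12) for vector-labelled against control.

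**Figure D5:**
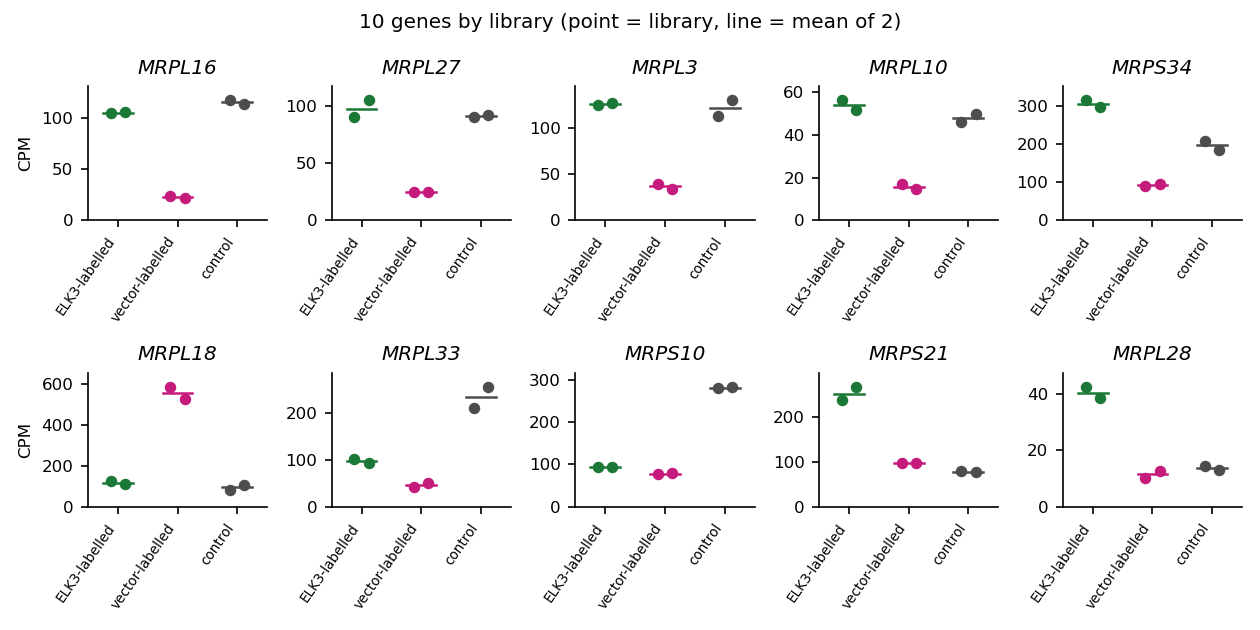
Level in CPM, TMM-scaled, of 10 genes in each library, on linear axes that start at 0. Points are libraries and lines the mean of 2. MRPL16, MRPL27, MRPL3, MRPL10 and MRPS34 are lowest in the vector-labelled libraries, where MRPL18 is highest. MRPL33 and MRPS10 are highest in the controls, and MRPS21 and MRPL28 in the ELK3-labelled libraries.

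The stalk, which recruits translation factors to the ribosome, is built on MRPL10 with copies of MRPL12, and MRPL11 forms its base. MRPL10 was 56.3 and 51.7 CPM in the ELK3-labelled libraries, 16.9 and 14.6 CPM in the vector-labelled libraries and 46.2 and 49.9 CPM in the control libraries. It was low in the vector-labelled libraries, with 1.76 ± 0.14 (SE, adjusted p = 5.32e-13) for ELK3-labelled against vector-labelled, 0.16 (adjusted p = 0.232) for ELK3-labelled against control and -1.60 ± 0.14 (SE, adjusted p = 7.26e-12) for vector-labelled against control. MRPL12, its partner in the stalk, was 79.8 and 76.7 CPM in the ELK3-labelled libraries, 55.97 and 67.4 CPM in the vector-labelled libraries and 62.7 and 61.9 CPM in the control libraries. It rose by 0.35 ± 0.10 (SE, adjusted p = 0.00438) against the vector-labelled libraries and by 0.33 ± 0.11 (SE, adjusted p = 0.00848) against the controls, and vector-labelled and control libraries overlapped. The first of these calls was lost without vector-labelled replicate 1 (0.22) and the second with the DESeq2 test (0.32). MRPL11 was 82.5 and 78.6 CPM in the ELK3-labelled libraries, 105 and 102 CPM in the vector-labelled libraries and 121 and 133 CPM in the control libraries, falling in both labelled knockdown groups against the controls, with log2 fold changes of -0.66 ± 0.09 in the ELK3-labelled (adjusted p = 2.49e-07) and -0.29 ± 0.09 in the vector-labelled libraries (adjusted p = 0.00601). The call in the vector-labelled libraries was lost without control replicate 2 (-0.24), with library totals (-0.16) and with a filter of 10 CPM (-0.19). The stalk proteins thus did not move together: MRPL10 was low in the vector-labelled libraries, MRPL12 high and MRPL11 low in the ELK3-labelled ones.

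Around the exit of the peptide tunnel, MRPL22, MRPL23 and MRPL24 are proteins of bacterial descent, MRPL45 anchors the ribosome to the inner membrane, and MRPL44 is related to RNase III. MRPL24 was 138 and 134 CPM in the ELK3-labelled libraries, 102 and 119 CPM in the vector-labelled libraries and 204 and 199 CPM in the control libraries. Its groups did not overlap, and it fell against the controls, with log2 fold changes of -0.57 ± 0.09 in the ELK3-labelled (adjusted p = 1.29e-06) and -0.87 ± 0.09 in the vector-labelled libraries (adjusted p = 3.25e-10). The rise of 0.30 against the vector-labelled libraries (adjusted p = 0.00524) was lost without vector-labelled replicate 1 (0.19). MRPL45 was 74.9 and 86.01 CPM in the ELK3-labelled libraries, 140.1 and 136 CPM in the vector-labelled libraries and 85.3 and 110.3 CPM in the control libraries. It stood highest in the vector-labelled libraries, with -0.77 ± 0.10 (SE, adjusted p = 7.62e-08) for ELK3-labelled against vector-labelled and 0.50 ± 0.10 (SE, adjusted p = 8.3e-05) for vector-labelled against control. Vector-labelled against control gave 0.31 without control replicate 1. For ELK3-labelled against control its call (-0.27, adjusted p = 0.0256) was lost without control replicate 2 (-0.09) or without ELK3-labelled replicate 1 (-0.18), and the libraries overlapped. MRPL23 had 19.1 and 14.1 CPM, 7.34 and 11.2 CPM and 14.01 and 11.6 CPM in the ELK3-labelled, vector-labelled and control libraries, and its single call, 0.85 for ELK3-labelled against vector-labelled (adjusted p = 0.00104), was lost without vector-labelled replicate 1 (0.55). MRPL22 differed little: its calls of 0.29 for ELK3-labelled against vector-labelled (adjusted p = 0.0116) and -0.24 for vector-labelled against control (adjusted p = 0.0387) were both lost without vector-labelled replicate 1 (0.22 and -0.16), the first also without ELK3-labelled replicate 1 (0.21) and the second also without control replicate 1 (-0.21). MRPL44 had 19.9 and 16.9 CPM, 20.9 and 12.2 CPM and 15.1 and 22.6 CPM in the same order of groups, and its libraries overlapped in every comparison.

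The remaining large-subunit genes described here were among the 6 highest or 6 lowest of a comparison. MRPL43, a mitochondria-specific protein, was 132 and 119.6 CPM in the ELK3-labelled libraries, 55.8 and 51.8 CPM in the vector-labelled libraries and 186 and 166 CPM in the control libraries. It fell against the controls, with log2 fold changes of -0.49 ± 0.09 in the ELK3-labelled (adjusted p = 2.11e-05) and -1.70 ± 0.10 in the vector-labelled libraries (adjusted p = 1.62e-16). MRPL57 and MRPL54, mitochondria-specific as well, were lower in both labelled knockdown groups: MRPL57 was 38.8 and 38.7 CPM in the ELK3-labelled libraries, 54.4 and 56.4 CPM in the vector-labelled libraries and 104 and 105 CPM in the control libraries. Against the controls it fell, with log2 fold changes of -1.43 ± 0.10 in the ELK3-labelled (adjusted p = 4.69e-14) and -0.92 ± 0.10 in the vector-labelled libraries (adjusted p = 9.52e-10). MRPL54 fell, with log2 fold changes of -0.89 and -0.90 in the ELK3-labelled and vector-labelled libraries (adjusted p = 6.69e-07 and 7.22e-07) and stood at 23.5 and 25.4 CPM in the ELK3-labelled libraries, 23.4 and 25.6 CPM in the vector-labelled libraries and 43.7 and 47.5 CPM in the control libraries. MRPL50 was 11.3 and 11.1 CPM in the ELK3-labelled libraries, 23.8 and 20.6 CPM in the vector-labelled libraries and 21.96 and 18.9 CPM in the control libraries, so that the ELK3-labelled libraries alone were low, with a log2 fold change of -1.0 against the vector-labelled libraries (adjusted p = 8.31e-06) and -0.87 ± 0.18 against the controls (adjusted p = 9.74e-05). MRPL46, of the central protuberance, was 38.96 and 44.3 CPM in the ELK3-labelled libraries, 80.8 and 72.04 CPM in the vector-labelled libraries and 52.7 and 59.8 CPM in the control libraries, lower in the ELK3-labelled libraries than in the vector-labelled libraries, with -0.87 ± 0.11 (adjusted p = 2.91e-08).

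In the small subunit, the panel of the decoding region held MRPS12, MRPS5, MRPS7 and MRPS11, of which MRPS12 is the counterpart of the bacterial protein that streptomycin resistance mutations alter. MRPS12 was 55.3 and 55.6 CPM in the ELK3-labelled libraries, 94.3 and 94.6 CPM in the vector-labelled libraries and 79.3 and 85.2 CPM in the control libraries. The ELK3-labelled libraries were lowest, with -0.77 ± 0.10 (SE, adjusted p = 3.61e-08) against the vector-labelled libraries and -0.57 ± 0.10 (SE, adjusted p = 1.09e-05) against the controls. All 4 fell in the ELK3-labelled against the vector-labelled libraries, where 29.6% of all genes tested and 9 of the 29 small-subunit genes fell. MRPS5, MRPS7 and MRPS11 had log2 fold changes of -0.32 ± 0.08, -0.34 ± 0.08 and -0.74 ± 0.13 there (adjusted p = 0.00124, 0.000927 and 8e-06). MRPS7 and MRPS11 rose in the vector-labelled libraries against the controls (0.49 and 0.61, adjusted p = 8.14e-06 and 0.000162), and MRPS5 and MRPS12 did not pass there. The fall of MRPS5 in the ELK3-labelled libraries against the controls (-0.22, adjusted p = 0.0235) was lost without control replicate 1 (-0.22), without control replicate 2 (-0.23) and without ELK3-labelled replicate 2 (-0.17). As a panel these genes summed to 402 and 396 CPM in the ELK3-labelled, 536 and 538 CPM in the vector-labelled and 443 and 438 CPM in the control libraries.

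The paralogs MRPS18A, MRPS18B and MRPS18C all descend from bacterial protein S18 and take different places in the ribosome. MRPS18A, which sits in the large subunit despite its symbol, was 40.9 and 39.9 CPM in the ELK3-labelled libraries, 16.3 and 16.6 CPM in the vector-labelled libraries and 42.5 and 33.8 CPM in the control libraries. MRPS18B was 118 and 131 CPM in the ELK3-labelled libraries, 82.4 and 71.04 CPM in the vector-labelled libraries and 208 and 184 CPM in the control libraries. MRPS18C, which takes the place of the bacterial protein in the small subunit, was 77.4 and 83.2 CPM in the ELK3-labelled libraries, 46.1 and 43.8 CPM in the vector-labelled libraries and 80.1 and 88.8 CPM in the control libraries. All 3 were lowest in the vector-labelled libraries, where no library overlapped those of the other groups. They rose by 1.29 ± 0.15, 0.69 ± 0.10 and 0.84 ± 0.11 in the ELK3-labelled against the vector-labelled libraries (adjusted p = 3.11e-09, 2.9e-07 and 2.67e-08). In the vector-labelled libraries against the controls they fell, with log2 fold changes of -1.21, -1.35 and -0.91 (adjusted p = 1.82e-08, 4.73e-14 and 5.54e-09). For ELK3-labelled against control, MRPS18B alone passed, with -0.65 (adjusted p = 2.35e-07).

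MRPS21, a small RNA-binding protein of the small subunit with bacterial counterparts, was 237 and 267 CPM in the ELK3-labelled libraries, 96.95 and 96.4 CPM in the vector-labelled libraries and 78.4 and 76.3 CPM in the control libraries. Its ELK3-labelled libraries stood far above both other groups, with 1.38 ± 0.09 (SE, adjusted p = 7.22e-15) against the vector-labelled libraries and 1.70 ± 0.09 (SE, adjusted p = 3.22e-17) against the controls. MRPS34, a mitochondria-specific protein needed for a stable small subunit, was 314 and 296 CPM in the ELK3-labelled libraries, 90.2 and 95.05 CPM in the vector-labelled libraries and 206 and 185 CPM in the control libraries. All 3 groups stood apart, with 1.72 ± 0.09 (SE, adjusted p = 4.84e-17) for ELK3-labelled against vector-labelled, 0.64 ± 0.09 (SE, adjusted p = 7.91e-08) for ELK3-labelled against control and -1.08 ± 0.09 (SE, adjusted p = 2.37e-12) for vector-labelled against control. MRPS10, of bacterial descent, was 93.3 and 92.6 CPM in the ELK3-labelled libraries, 76.5 and 79.2 CPM in the vector-labelled libraries and 279.6 and 283 CPM in the control libraries. It was high in the controls, and the ELK3-labelled and vector-labelled libraries had log2 fold changes of -1.60 ± 0.09 and -1.85 ± 0.09 against them (adjusted p = 2.22e-17 and 7.53e-19).

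MRPS14, another protein of bacterial descent, was 82.8 and 76.4 CPM in the ELK3-labelled libraries, 145 and 136 CPM in the vector-labelled libraries and 56.5 and 52.9 CPM in the control libraries. It rose in both labelled knockdown groups against the controls, by 0.54 ± 0.10 in the ELK3-labelled and 1.36 ± 0.10 in the vector-labelled libraries (adjusted p = 3.35e-05 and 6.79e-14). MRPS35, specific to mitochondria, was 113 and 125 CPM in the ELK3-labelled libraries, 140.3 and 124 CPM in the vector-labelled libraries and 73.2 and 77.8 CPM in the control libraries, also a rise in both, by 0.66 and 0.81 (adjusted p = 6.61e-07 and 9.04e-09). MRPS24 was 134 and 137 CPM in the ELK3-labelled libraries, 249.7 and 239.9 CPM in the vector-labelled libraries and 300.3 and 306 CPM in the control libraries, with a log2 fold change of -0.85 ± 0.08 in the ELK3-labelled against the vector-labelled libraries and -1.16 ± 0.08 against the controls (adjusted p = 1.71e-10 and 6.21e-14). It shares 425 exon bases on the same strand with the read-through gene URGCP-MRPS24, which was listed at 134 and 136 CPM, 248 and 238 CPM and 298 and 304 CPM in the ELK3-labelled, vector-labelled and control libraries. Reads of the 2 genes cannot be told apart at such nearly equal values.

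MRPS30, which like MRPS18A sits in the large subunit despite its symbol, was 55.02 and 57.9 CPM in the ELK3-labelled libraries, 56.6 and 52.8 CPM in the vector-labelled libraries and 41.2 and 46.7 CPM in the control libraries. It rose by 0.37 ± 0.11 in the ELK3-labelled and 0.32 ± 0.12 in the vector-labelled libraries against the controls (adjusted p = 0.00602 and 0.0156). Without control replicate 1 these calls were lost (0.28 and 0.22), as was the first without ELK3-labelled replicate 2 (0.32) and the second without vector-labelled replicate 1 (0.26). With MRPS30 and MRPS18A counted in the large subunit, a grouping added after the values were seen, 28 of 50 large-subunit and 12 of 27 small-subunit genes rose in the ELK3-labelled against the vector-labelled libraries, and 14 and 9 fell. Of all genes tested 30.0% rose and 29.6% fell there. MRPS36, which RefSeq lists as KGD4, is known as a component of the oxoglutarate dehydrogenase complex. Its membership of the mitochondrial ribosome is uncertain, and it was counted here by its symbol. MRPS36 was 53.4 and 51.2 CPM in the ELK3-labelled libraries, 41.6 and 42.2 CPM in the vector-labelled libraries and 65.9 and 70.3 CPM in the control libraries. Against the controls its log2 fold changes were -0.38 and -0.70 in the ELK3-labelled and vector-labelled libraries (adjusted p = 0.00237 and 1.37e-06). Its rise against the vector-labelled libraries (0.32, adjusted p = 0.013) was lost without vector-labelled replicate 1 (0.31) and without ELK3-labelled replicate 1 (0.30).

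Over all calls in the ELK3-labelled against the vector-labelled libraries, the 40 that rose had log2 fold changes of 0.26 to 2.23 with a median of 0.69, and the 23 that fell lay between -2.25 and -0.31 with a median of -0.60. Those that rose beside the genes already described included MRPL39 (1.68), MRPS31 (1.29), MRPL47 (0.87) and MRPL40 (0.87), and those that fell included MRPS15 (-0.54), MRPS9 (-0.49) and MRPS2 (-0.40). Against the controls, the ELK3-labelled range was 0.23 to 1.70 for the 17 that rose and -1.60 to -0.22 for the 33 that fell, and the vector-labelled range was 0.32 to 2.56 for 17 and -2.37 to -0.24 for 42.

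By descent, another grouping added after the values were seen, 47 genes have a bacterial counterpart and 30 are specific to mitochondria. In the ELK3-labelled against the vector-labelled libraries, 26 of the 47 rose and 16 fell (median 0.30), and 14 of the 30 rose and 7 fell (median 0.08). Of all genes tested 30.0% rose and 29.6% fell in this comparison. The 29 bacterial-type genes of the large subunit had 20 higher and 7 lower (median 0.45), and the 18 of the small subunit had 6 and 9 (median -0.33). Among the mitochondria-specific genes the order was the other way, with 7 higher and 7 lower of 19 in the large subunit (median -0.01) and 7 higher and 0 lower of 11 in the small subunit (median 0.35). These are counts without a test of their difference.

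Genes whose starts lie back to back can share a promoter region, so the neighbour of a gene can be read beside it. In the RefSeq windows, 22 of the 69 genes had a neighbour on the other strand whose start lay at most 1000 bases upstream, or overlapped by at most 100 bases, in 23 pairs, of which 18 could be tested on both sides. MRPL46 and MRPS11 are such a pair, 320 bases apart, and are counted from both sides. In the ELK3-labelled against the vector-labelled libraries both genes were called in 10 pairs, in the same direction in 9 and in opposite directions in 1; in 5 pairs only the mitoribosomal gene was called, in 2 only its neighbour and in 1 neither. In the vector-labelled libraries against the controls both were called in 10 (8 in the same direction and 2 in opposite ones), the mitoribosomal gene alone in 3, the neighbour alone in 4 and neither in 1. In the ELK3-labelled libraries against the controls the counts were 6 (4 and 2), 5, 4 and 3. MRPL46 and MRPS11 add 2 to the 9 and 2 to the 8, and such pairs of other genes were not counted. Of all genes tested, 30.0% rose and 29.6% fell in the first of these comparisons. The shares were 37.0% and 35.3% in the second and 31.8% and 30.8% in the third. The pairs that follow were chosen after their values were seen. MRPL18 starts 210 bases from TCP1, a subunit of the TRiC chaperonin, which was 518 and 549 CPM in the ELK3-labelled libraries, 554 and 531 CPM in the vector-labelled libraries and 374 and 388 CPM in the control libraries. TCP1 thus did not pass for ELK3-labelled against vector-labelled (-0.02), where the log2 fold change of MRPL18 was -2.25. MRPL27 starts 45 bases from EME1, a subunit of a DNA repair nuclease, which was 142 and 146 CPM in the ELK3-labelled libraries, 155 and 174 CPM in the vector-labelled libraries and 168 and 159.8 CPM in the control libraries and passed in no comparison. MRPL57 starts 106 bases from SKA3, a kinetochore gene, which fell like it against the controls, with log2 fold changes of -2.14 in the ELK3-labelled and -2.03 in the vector-labelled libraries.

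In the GENCODE 29 annotation, 34 of the 77 genes share exon bases with another gene, 24 of them with a gene on the other strand, and the sources used here do not state whether counting used the strand. MRPL51 overlaps NCAPD2 by 382 bases, MRPS18A overlaps RSPH9 by 604 and MRPS12 overlaps SARS2 by 349. RSPH9 was at most 1.91 CPM in any library, while NCAPD2 was 93.98 and 82.1 CPM in the ELK3-labelled libraries, 58.6 and 55.2 CPM in the vector-labelled libraries and 131 and 116 CPM in the control libraries. MRPL28 shares 223 bases on the same strand with TMEM8A, which was 38.3 and 49.7 CPM in the ELK3-labelled libraries, 15.9 and 22.4 CPM in the vector-labelled libraries and 30.7 and 36.6 CPM in the control libraries. A further limit is that 34 of the 77 have pseudogene copies by symbol, up to 8 for MRPS21, and reads of near-identical copies could be placed at either.

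Of the mitoribosomal proteins with other symbols, 6 were in the files, and they can be set beside the 77. In the ELK3-labelled against the vector-labelled libraries 3 of the 6 rose and 1 fell (median 0.26), against the controls 5 fell in the ELK3-labelled libraries (median -0.41) and 6 fell in the vector-labelled libraries (median -0.61). Of all genes tested, 30.0% rose and 29.6% fell in the first of these comparisons. The shares were 31.8% and 30.8% in the second and 37.0% and 35.3% in the third, and they stand beside the lists that follow as well. ICT1, a large-subunit protein that frees stalled ribosomes, was 89.4 and 108 CPM in the ELK3-labelled libraries, 21.6 and 24.2 CPM in the vector-labelled libraries and 114 and 127 CPM in the control libraries. Its order of groups was that of MRPL16, with 2.12 ± 0.12 (SE, adjusted p = 4.08e-16) for ELK3-labelled against vector-labelled and -2.40 ± 0.12 (SE, adjusted p = 3.58e-18) for vector-labelled against control. DAP3, a GTP-binding protein of the small subunit, was 123 and 128 CPM in the ELK3-labelled libraries, 97.4 and 101 CPM in the vector-labelled libraries and 159 and 159.99 CPM in the control libraries, lower in both labelled knockdown groups than in the controls (-0.34 and -0.68, adjusted p = 0.00102 and 3.95e-08).

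Of 23 assembly factors in the files, 8 rose and 6 fell in the ELK3-labelled against the vector-labelled libraries (median 0.15), 5 rose and 7 fell in the ELK3-labelled libraries against the controls (median -0.06), and 5 rose and 7 fell in the vector-labelled libraries against the controls (median -0.14). FTSJ2, a methyltransferase for the RNA of the large subunit, was 50.4 and 53.2 CPM in the ELK3-labelled libraries, 9.11 and 13.2 CPM in the vector-labelled libraries and 51.4 and 52.5 CPM in the control libraries, a difference of 2.25 between ELK3-labelled and vector-labelled libraries (adjusted p = 2.15e-14). MTERF4, which brings the methyltransferase NSUN4 to the ribosome, was 24.3 and 26.9 CPM in the ELK3-labelled libraries, 4.55 and 4.002 CPM in the vector-labelled libraries and 13.2 and 14.8 CPM in the control libraries, with 2.57 for ELK3-labelled against vector-labelled (adjusted p = 1.97e-12) and -1.69 for vector-labelled against control (adjusted p = 1.85e-07). NGRN, which binds the RNA of the large subunit, was 116 and 109.8 CPM in the ELK3-labelled libraries, 40.7 and 43.4 CPM in the vector-labelled libraries and 115 and 129 CPM in the control libraries, rising by 1.43 in the first of these comparisons (adjusted p = 1.14e-13). MPV17L2 ran the other way with 11.3 and 10.7 CPM in the ELK3-labelled libraries, 31.4 and 29.8 CPM in the vector-labelled libraries and 10.7 and 12.04 CPM in the control libraries, with a log2 fold change of -1.48 (adjusted p = 2.19e-09).

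Among 19 translation factors and related genes, 7 rose and 6 fell in the ELK3-labelled against the vector-labelled libraries (median 0.17), and against the controls 4 rose and 8 fell in the ELK3-labelled (median -0.16) and 5 rose and 9 fell in the vector-labelled libraries (median -0.13). MTIF2, the initiation factor that brings the first tRNA, was 105 and 105 CPM in the ELK3-labelled libraries, 34.7 and 29.4 CPM in the vector-labelled libraries and 138 and 159 CPM in the control libraries. It rose by 1.70 ± 0.11 (SE, adjusted p = 7.81e-15) in the ELK3-labelled against the vector-labelled libraries, in which it was lowest. C12orf65, a release factor relative that acts on stalled ribosomes, was 44.8 and 54.3 CPM in the ELK3-labelled libraries, 178 and 198 CPM in the vector-labelled libraries and 106 and 99.99 CPM in the control libraries and fell, with a log2 fold change of -1.91 in that comparison (adjusted p = 4.84e-17). Of 20 mitochondrial aminoacyl-tRNA synthetase and amidotransferase genes, 7 rose and 8 fell in the ELK3-labelled against the vector-labelled libraries (median -0.15), 7 rose and 4 fell in the ELK3-labelled libraries against the controls (median 0.05), and 7 rose and 5 fell in the vector-labelled libraries against the controls (median 0.19). HARS2, the histidine enzyme, was 23.5 and 22.9 CPM in the ELK3-labelled libraries, 7.20 and 6.20 CPM in the vector-labelled libraries and 21.1 and 18.7 CPM in the control libraries, and TARS2, the threonine enzyme, was 57.7 and 57.5 CPM in the ELK3-labelled libraries, 22.6 and 21.2 CPM in the vector-labelled libraries and 39.5 and 37.4 CPM in the control libraries. Both were lowest in the vector-labelled libraries, with 1.77 and 1.39 for ELK3-labelled against vector-labelled (adjusted p = 1.27e-09 and 1.83e-11). FARS2 of the same list went the other way there, with -1.42 (adjusted p = 4.93e-09).

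Of 81 genes for proteins of the cytosolic ribosome, 8 (9.88%) rose and 38 (46.9%) fell in the ELK3-labelled against the vector-labelled libraries (median -0.18), where 30.0% of all genes rose and 29.6% fell. In the ELK3-labelled libraries against the controls, 22 (27.2%) rose and 31 (38.3%) fell (median -0.07), and in the vector-labelled libraries against the controls 32 (39.5%) rose and 21 (25.9%) fell (median 0.06). Of 76 nuclear genes for respiratory chain and ATP synthase subunits, 21 (27.6%) rose and 30 (39.5%) fell (median -0.11), 27 (35.5%) rose and 28 (36.8%) fell (median 0.00), and 33 (43.4%) rose and 26 (34.2%) fell (median 0.07) in the same order of comparisons. No difference between lists was tested.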

How the data were processed

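Quant-Seq reads, which come from transcript ends, gave 6 deposited files of read counts per gene symbol, 1 per library. Per the submitters' processing notes the authors used Bowtie2, edgeR and the hg19 build. The counter, its annotation, its strand setting and filters are not given in the sources used here. Lines that share a symbol (286 symbols, among them MRPS18B with 7 lines, 1 of which holds counts) were summed. From the deposited counts, edgeR 4.0.16 (R 4.3.3) fitted all 6 libraries with TMM scaling, its filter on low counts and a robust quasi-likelihood test, with Benjamini-Hochberg adjustment over 15386 genes. Each SE is the log2 fold change divided by the root of F. Members, gene lists and motifs were chosen with earlier results of these data known. Named genes are the 6 highest and 6 lowest members of each comparison, the members of fixed role panels, and up to 4 genes of each other list by p. Alternatives were library totals, other filters, DESeq2 1.42.0, limma 3.58.1, a replicate block and leaving out each library. Promoters and their coordinates come from RefSeq GRCh38.p14, and exon overlaps from GENCODE 29.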

Additional observations from a re-analysis of the deposited data

How the results depend on the processing

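For the members together, size factors of DESeq2, the DESeq2 test, limma-voom and a fit of only the 4 libraries compared kept the counts within 1.5 times and the direction of the median. Library totals gave 30 genes higher in the ELK3-labelled libraries than in the controls. The medians of the members were then 0.32 (ELK3-labelled against vector-labelled), 0.068 (ELK3-labelled against control, with the sign turned, beside 0.18 for all genes) and -0.18 (vector-labelled against control). With no filter the first and last medians were 0.35 and -0.36, and with a filter of 10 CPM the 3 medians were 0.22, -0.058 and -0.21. Leaving out 1 library gave medians of 0.21 to 0.30, -0.12 to -0.061 and -0.40 to -0.30 in the same order, where a lone library is assumed to vary like the other groups. The replicate numbers did not pair the libraries (correlations of same-numbered deviations of -0.001, 0.033 and -0.056), and with the replicate block the counts were 40 higher and 23 lower, 17 and 33, and 17 and 42, with medians of 0.29, -0.09 and -0.31.

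Of 86 comparisons of single genes with full statistics, 28 changed their call or direction in at least 1 setting. Those whose sign turned had small differences. With library totals MRPL12 gave 0.11 (vector-labelled against control), and MRPL44, MRPS11 and MRPS18C gave 0.12, 0.030 and 0.092 (ELK3-labelled against control). With the filter of 10 CPM MRPL12 gave 0.077 and MRPS30 -0.021 (ELK3-labelled against vector-labelled). Without 1 library, MRPL12 ran from -0.17 to 0.11 and MRPL44 from -0.63 to 0.15 (vector-labelled against control), MRPL44 from -0.18 to 0.59 (ELK3-labelled against vector-labelled), and against the controls in the ELK3-labelled libraries MRPL22 ran from -0.033 to 0.14, MRPL44 from -0.31 to 0.27, MRPS18A from -0.082 to 0.25 and MRPS18C from -0.14 to 5.9e-05. Library totals also ended the calls of MRPL11 (-0.16) and MRPL22 (-0.10) for vector-labelled against control and of MRPL45 (-0.11), MRPS36 (-0.22) and MRPS5 (-0.06) for ELK3-labelled against control. The DESeq2 test ended those of MRPL12 (0.32) and MRPL45 (-0.28) for ELK3-labelled against control, MRPL22 (0.29) and MRPS36 (0.32) for ELK3-labelled against vector-labelled, and MRPL22 (-0.24) and MRPS30 (0.31) for vector-labelled against control. The filter of 10 CPM ended those of MRPL45 (-0.24) for ELK3-labelled against control and of MRPL11 (-0.19) and MRPL22 (-0.13) for vector-labelled against control, where no filter ended that of MRPS30 (0.27) and a fit of only the 4 libraries compared that of MRPL22 (-0.22). Library totals added 5 calls. The causes were not tested. Intervals and calls cover the spread of 2 libraries a group.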
